A study of Mus musculus with 9 samples.

Results

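Cells carrying EGFP under the human GFAP promoter were compared before and after expansion in culture, on 3 arrays of untreated gliospheres and 3 arrays of cells sorted straight from the gut, 6 of the 9 arrays of the series. The members were taken by their labels alone. The 3 arrays of LPS-stimulated gliospheres (LPS at 100 µg/ml) entered only the normalization, the probe filter, the choice of probe and the estimate of the spread. All arrays shared the same source. It was the longitudinal muscle and myenteric plexus preparation (LMMP) of the small intestine from hGFAP-eGFP mice of the FVB background at about postnatal day 7, with the EGFP-positive cells collected by flow cytometry. The cells labelled in vivo are described by the study as directly sorted, although their labels carry the same culture text as the other arrays. The untreated gliospheres had spent 2 weeks on dishes coated with poly-ornithine, fibronectin and laminin in DMEM/F-12 with B27 and N2, with EGF and bFGF at 40 ng/ml each and 2% O2, and were then passaged onto uncoated plastic, where they formed spheres for 48 h without LPS. Culture, passage, growth factors, low oxygen and sphere formation therefore differ together between the groups and cannot be told apart. The sort selects cells by a transgene with a human promoter and not by their own Gfap, the intestines of a litter were pooled, each of 3 animal preparations of gliospheres was split into an untreated and an LPS dish, and the labels give the same replicate numbers in both groups without saying that a number stands for 1 litter. In such bulk samples fewer cells of a type and less RNA per cell cannot be told apart.

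Enteric glia are neural crest-derived cells that ensheathe the neurons of the myenteric and submucosal plexus. They share Sox10 and S100b with Schwann cells and, in part, GFAP with astrocytes of the brain, and glial cells of the postnatal gut can re-enter the cell cycle and take on progenitor-like features when placed in culture with growth factors. Neurons of the plexus, derived from the same precursors, use peptides, acetylcholine and nitric oxide as transmitters, and smooth muscle, interstitial cells, resident macrophages, vessels and serosal mesothelium surround them in the muscle layer.

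Levels below are normalized log2 signals of the most intense probe of each gene, a difference is the mean of the gliospheres minus that of the freshly sorted cells, and its error is the SE of the fit. A gene was called past the test at a limma adjusted p under 0.05 (Benjamini-Hochberg over all probes tested), and a probe counted as above background on an array at a detection p of 0.05 or less. Where a gene was not above background on any of the 3 arrays of 1 group, its fold is given as a lower bound.

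The arrays were alike in the share of probes above background, between 46.6% and 50.1%, while the median raw signal was 193.5 to 215.4 in untreated gliospheres and 123.7 to 164.5 in freshly sorted cells. The 3 gliosphere arrays correlated with each other at 0.975 to 0.980 over probes. Freshly sorted replicates 2 and 3 correlated at 0.962, and replicate 1 with them at 0.910 and 0.898. Replicate 1 lay more than 1 log2 unit from the mean of its 2 partners in 3674 genes, against 1674 and 1970 genes for replicates 2 and 3 and 508 to 683 for the gliosphere arrays. The median SD within the group was 0.557 in freshly sorted cells and 0.257 in untreated gliospheres. Results are therefore also given without freshly sorted replicate 1 where that matters.

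The labelled identity was checked first. Gfap, the intermediate filament gene whose human promoter drives the transgene, read 4.31, 3.87 and 3.13 on freshly sorted replicates 1 to 3 and was not above background on any of them. In untreated gliospheres it read 7.43, 9.02 and 7.97, above background on all 3. The groups did not overlap, and Gfap was at least 9.69-fold higher in gliospheres (difference 4.37 ± 0.43, adjusted p = 1.6e-04). S100b, which encodes a glial calcium-binding protein, read 6.98, 6.79 and 5.87 in gliospheres and 3.33, 5.26 and 6.10 in freshly sorted cells, where it was above background on 2 arrays. Its ranges overlapped and it did not pass the test (difference 1.65 ± 0.70, adjusted p = 0.12). Without freshly sorted replicate 3 S100b passed it, at an adjusted p of 0.046. Ngfr, the p75 neurotrophin receptor of crest-derived cells, was among the brighter genes on every array, at 12.92, 12.61 and 12.91 in gliospheres and 13.07, 13.72 and 13.23 in freshly sorted cells (difference -0.53 ± 0.25, adjusted p = 0.15). Sox10 and Erbb3 were not analysed here. The group labelled GFAP-glia in vivo thus held cells with high Ngfr, Gfap not above background, and, as described further on, bright neuronal genes, and it is called freshly sorted cells here.

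Across 10795 genes tested, 2807 (26.0%) passed the test, 1419 of them higher in gliospheres (13.1%) and 1388 lower (12.9%). The counts of the gene lists below are to be read beside these shares. The median difference over all genes was 0.09. The arrays of the groups did not overlap in 2571 genes with gliospheres higher and 2081 with gliospheres lower, so this trait alone does not set a gene apart. Of the genes past the test, 2390 differed by more than 1 log2 unit and 434 by more than 3. In 192 of the higher genes no freshly sorted array was above background, and in 468 of the lower genes no gliosphere array was. Leaving out untreated replicate 1, 2 or 3 lowered the count of higher genes to 880, 853 and 894, and leaving out replicate 2 that of all genes to 1828. Without freshly sorted replicate 1, 3504 genes passed, and 2568 of the 2807 were past the test on the same probe in the same direction. With the LPS arrays left out of the fit, 1900 genes passed.

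**Figure D1:**
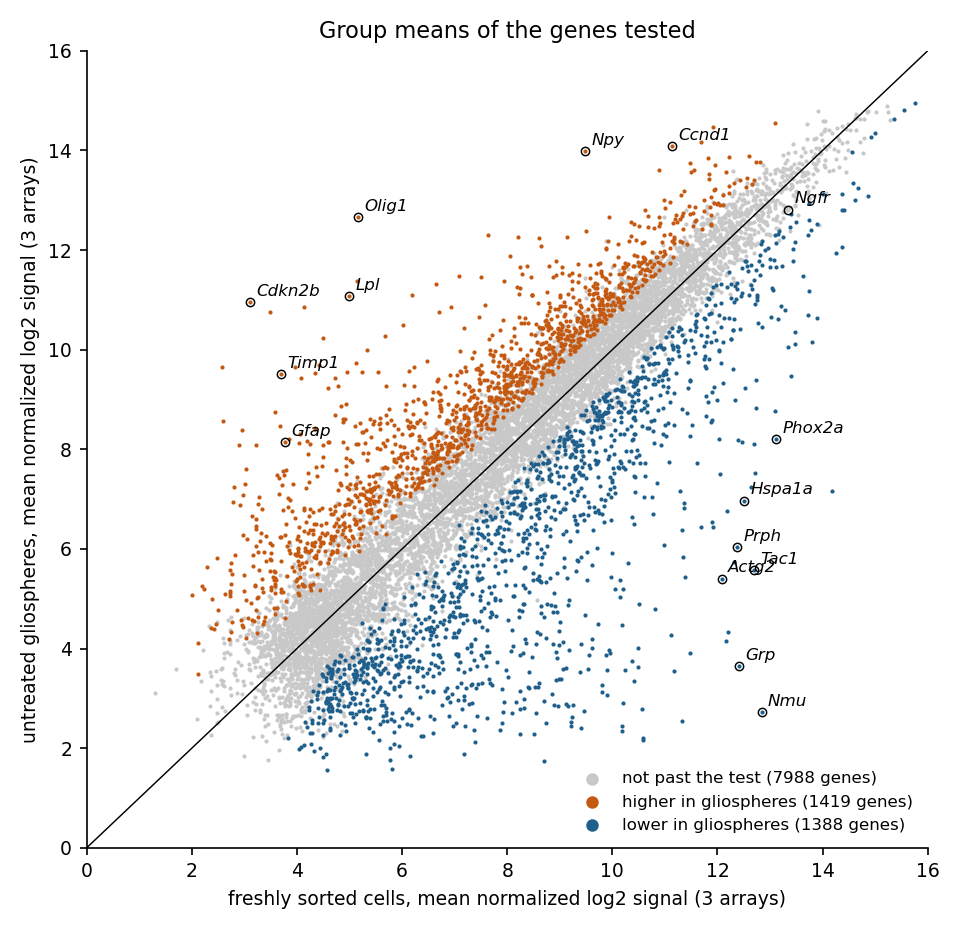
Mean normalized log2 signal of each of 10795 genes in untreated gliospheres (vertical axis, 3 arrays) against freshly sorted cells (horizontal axis, 3 arrays), with 1419 genes higher in gliospheres, 1388 lower and the rest not past the test. Genes with a label are ringed, and the line marks equal levels. Of the ringed genes, Nmu, Grp and Tac1 lie farthest below the line and Cdkn2b, Olig1 and Lpl farthest above.

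The 10 genes that were lowest in gliospheres relative to freshly sorted cells, among those whose arrays did not overlap and with undetected genes ranked by their bound, were Nmu, Grp, Scn11a, Fibcd1, Tac1, Myl1, Scgn, Actg2, Pdyn and Col9a2. Nmu encodes the peptide neuromedin U. It read 11.51, 13.59 and 13.42 in freshly sorted cells and 2.55, 1.64 and 3.99 in gliospheres, where no array was above background, at least 271-fold lower (adjusted p = 2.0e-05). A further 4 of the set belong to neurons by their usual function, Grp (gastrin-releasing peptide), Tac1 (substance P and neurokinin A), Pdyn (dynorphins) and Scn11a (a sodium channel of sensory and myenteric neurons). The bound was at least 199-fold for Grp, 174-fold for Scn11a and 94.7-fold for Pdyn, and Tac1, above background on all 6 arrays, was 140-fold lower. Scgn encodes secretagogin, a calcium-binding protein of endocrine and neuronal cells, and was at least 105-fold lower. Myl1, a myosin light chain, and Actg2, the enteric smooth muscle actin, were 129-fold and 102-fold lower, with Actg2 above background on 2 of 3 gliosphere arrays. Fibcd1, a membrane receptor for acetylated ligands, was at least 169-fold lower, and Col9a2, a collagen chain known from cartilage and above background on all 6 arrays, 94.6-fold.

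In the other direction the 10 largest differences, ranked in the same way, were those of Olig1, Cdh13, Cdkn2b, Lpl, Msx1, Gpnmb, Gdnf, Hsd11b1, Ahrr and Ccdc3. Olig1, a transcription factor of oligodendrocyte precursors in the brain, read 12.91, 12.80 and 12.28 in gliospheres and 6.15, 6.45 and 2.86 in freshly sorted cells, 2 of them above background (difference 7.51 ± 0.83, adjusted p = 2.8e-04). Cdkn2b, the cyclin-dependent kinase inhibitor p15, read 10.89, 10.79 and 11.19 in gliospheres against 2.64, 3.64 and 3.05, at least 68.2-fold higher (adjusted p = 3.0e-06). Lpl (lipoprotein lipase), above background on 2 freshly sorted arrays, differed by 6.09 log2 units, and Msx1 (a homeobox factor of neural crest), Gpnmb (a transmembrane glycoprotein known from melanocytes and macrophages) and Gdnf (the ligand of RET for enteric precursors) were at least 63.3-fold, 59.5-fold and 41.4-fold higher. Cdh13 (T-cadherin), Hsd11b1 (which regenerates active glucocorticoid), Ahrr (the repressor of the aryl hydrocarbon receptor) and Ccdc3 (a secreted coiled-coil protein) differed by 6.23, 5.28, 5.20 and 4.92 log2 units. None of these 20 genes lost its call in any of the 20 alternative fits, each read on the most intense probe it tested. The genes had been picked as the largest differences on these same arrays, so this is no separate support.

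Beyond Gfap, the enteric glial list split. Of its 13 genes tested, 4 were higher in gliospheres (30.8%, against 13.1% over all genes) and 2 lower (15.4% against 12.9%). The other 7 did not pass, and the median difference was 0.21. Sox2, a transcription factor of glia and progenitors, read 8.32, 9.11 and 8.33 in gliospheres and 7.36, 4.95 and 5.05 in freshly sorted cells, 6.97-fold higher (adjusted p = 0.0078). Cdh19, a cadherin of Schwann cell precursors and glia, read 8.22, 10.16 and 8.34 against 6.58, 5.38 and 6.27 (difference 2.83 ± 0.54, adjusted p = 0.0056). Neither gene's groups overlapped, and freshly sorted replicate 1 held the highest freshly sorted level of both. Cryab, a small heat shock protein, rose by 0.98, and Fabp7 and Lpar1, a fatty acid-binding protein of glia and a lysophosphatidic acid receptor, were lower, with differences of -1.44 and -1.43. These last calls were weaker. Cryab did not pass without untreated replicate 2 (adjusted p = 0.0702), nor Fabp7 without untreated replicate 2 or 3 (adjusted p = 0.0617 and 0.0625 by limma). The genes that did not pass included Entpd2, Ednrb, Gpr37l1, Apoe and L1cam, with differences from -0.80 to 0.38, and Apoe passed without freshly sorted replicate 1 (adjusted p = 0.0343).

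Myelin-related genes separated into a lower and a higher group. Of 13 Schwann cell and myelin genes tested, 5 were lower, 3 higher and 5 not past the test, with a median of -0.02. Mag, myelin-associated glycoprotein, read 6.92, 7.44 and 6.84 in freshly sorted cells and 3.51 to 4.03 in gliospheres, where it was not above background, at least 4.94-fold lower (adjusted p = 5.1e-05). Drp2, which links the Schwann cell membrane to the basal lamina, was at least 10.2-fold lower, and Ugt8a, the galactosyltransferase of myelin glycolipids, at least 5.31-fold lower. Egr2, the transcription factor Krox20 that drives Schwann cell myelination, read 8.45, 10.60 and 9.84 against 5.83, 6.83 and 6.49 in gliospheres, 9.47-fold lower (adjusted p = 0.0027). Egr2 is also an immediate early gene, a group described further on. In contrast Gldn (gliomedin, which clusters sodium channels at nodes) was at least 6.49-fold higher in gliospheres, and Dhh (Desert hedgehog, a ligand made by Schwann cells) read 8.51, 8.81 and 8.31 against 5.90, 6.89 and 6.09, 4.77-fold higher (adjusted p = 0.0013). Mbp and Pmp22, which encode structural proteins of peripheral myelin, did not pass (differences -1.20 and 0.86), although Pmp22 did without freshly sorted replicate 2 (adjusted p = 0.0445).

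Of 9 astrocyte markers tested, 1 passed the test, higher in gliospheres (11.1%, against 13.1% over all genes). This was Slc1a3, the glutamate and aspartate transporter GLAST, at 11.21, 11.49 and 11.74 in gliospheres and 5.33, 7.62 and 8.31 in freshly sorted cells (difference 4.39 ± 0.66, adjusted p = 0.0016). Its groups did not overlap, and the difference without freshly sorted replicate 1 was 3.51. Slc1a2, Aldh1l1, Glul, Gja1, Aldoc, Ndrg2, Slc4a4 and Mlc1 did not pass, with differences between -1.17 and 0.66. Of these Slc1a2 was lower past the test without untreated replicate 3 or freshly sorted replicate 1 (adjusted p = 0.0323 and 0.044), and Aldh1l1 without LPS replicate 3 or freshly sorted replicate 2 (adjusted p = 0.0434 and 0.0404).

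Of 13 transcription factors of neural crest and progenitors tested, 7 were higher in gliospheres (53.85%, against 13.1% over all genes). A further 2 were lower (15.4% against 12.9%) and 4 not past the test, and the median difference was 1.73. Besides Olig1 and Msx1, Sox9, which specifies crest and gliogenic precursors, read 6.99, 6.81 and 7.96 in gliospheres and 3.59, 3.66 and 1.15 in freshly sorted cells, where it was not above background, at least 5.24-fold higher (adjusted p = 0.0015). Tfap2a, the crest factor AP-2 alpha, read 8.69, 8.85 and 8.52 against 5.32, 4.64 and 4.22, with 1 freshly sorted array above background (difference 3.97 ± 0.32). Nr2f1, Ets1 and Id4 were 6.07-fold, 3.38-fold and 3.31-fold higher. Nr2f1 is the nuclear receptor COUP-TFI, Ets1 a factor of migrating crest, and Id4 an inhibitor of bHLH factors. Its relatives Id1 and Id3, both targets of BMP signalling, moved the other way and were 5.41-fold and 3.58-fold lower, Id1 from 9.08, 8.63 and 7.96 to 5.96, 5.80 and 6.60. Like many of the genes tested, Id1, Id3 and Id4 did not overlap between the groups.

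**Figure D2:**
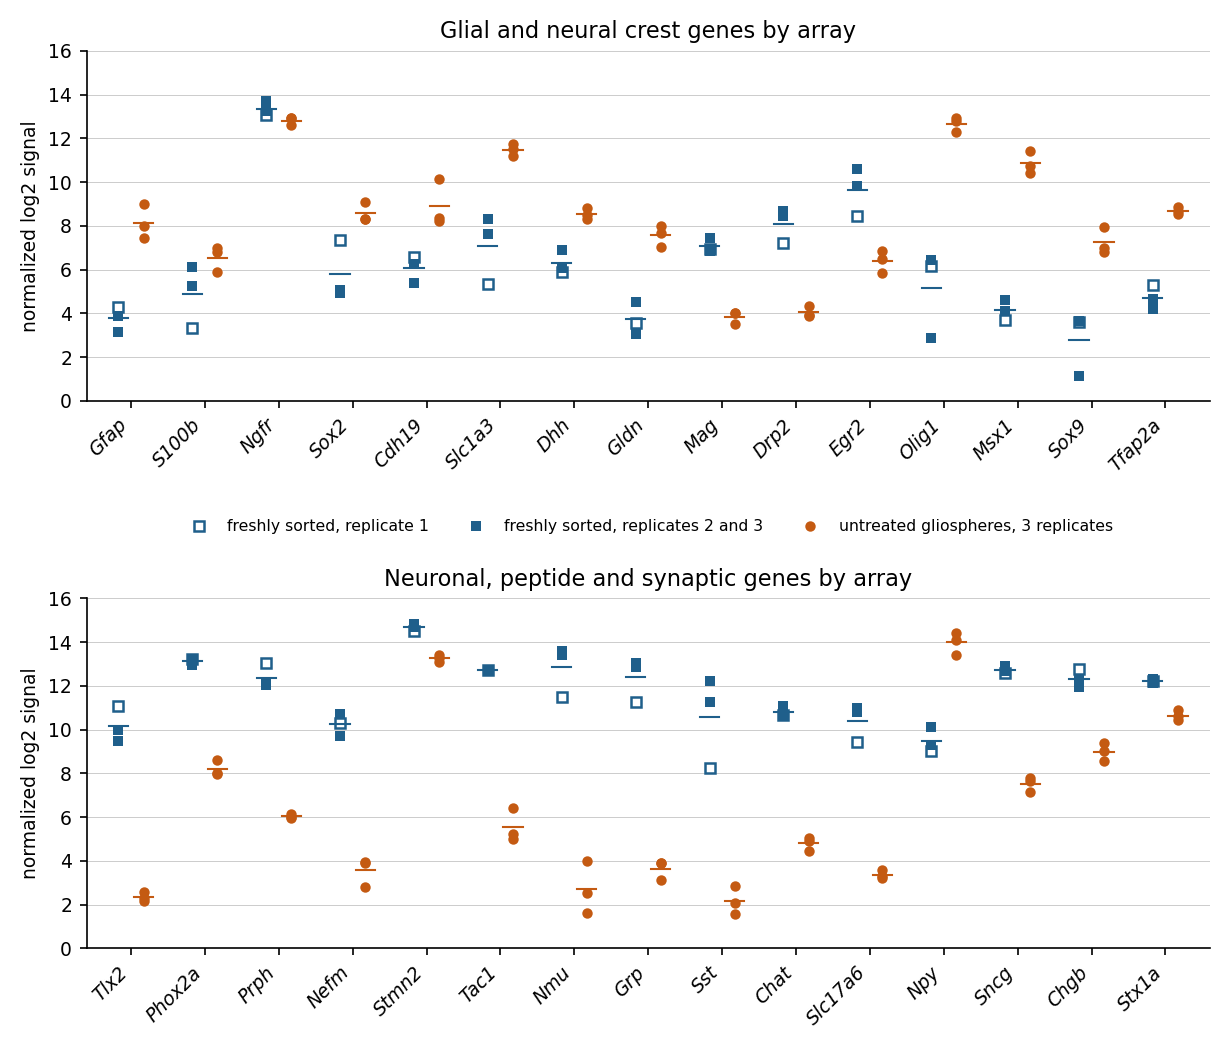
Normalized log2 signal (vertical axis) of 15 glial and neural crest genes (upper panel) and 15 neuronal, peptide and synaptic genes (lower panel) on each array, with circles for the 3 untreated gliosphere arrays, squares for the 3 freshly sorted arrays (replicate 1 open) and a bar at each group mean. Gfap, Olig1, Msx1 and Npy lie higher in gliospheres. Nmu, Grp, Sst and Tlx2 lie near the bottom of the scale in gliospheres and Prph above them. In freshly sorted cells Nmu, Grp, Sst, Tlx2 and Prph lie between 8.22 and 13.59.

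Neuronal genes were measured in separate lists, the transcription factors of enteric neurons, the pan-neuronal and growth cone genes, the peptides with the enzymes of transmitter synthesis, and the genes of synaptic vesicles and secretory granules. Among 13 enteric neuron transcription factors tested, 5 were lower, 1 higher and 7 not past the test, with a median of -0.22. Tlx2, a homeobox gene of enteric and autonomic neurons, read 11.07, 9.98 and 9.49 in freshly sorted cells and 2.30, 2.15 and 2.57 in gliospheres, at least 42.7-fold lower (adjusted p = 6.9e-06). Phox2a, a homeobox factor of autonomic neurons, read 13.24, 13.17 and 12.95 against 7.98, 8.03 and 8.60, 30.2-fold lower, and was still above background on all gliosphere arrays. Ebf3 and Tbx2 were 5.92-fold and 4.95-fold lower. Isl1 was at least 1.11-fold lower, above background on 2 freshly sorted arrays and on no gliosphere array. Hand2, Sox4, Insm1, Tbx3 and Meis1, which precursors or other cells of the gut wall also use, did not pass (differences from -0.22 to 0.70). Hand2 and Insm1 were higher past the test without freshly sorted replicate 1 (adjusted p = 0.0213 and 0.0361). The count of higher genes was then 3, and it was 0 without untreated replicate 2 or freshly sorted replicate 2 or 3.

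Of 27 pan-neuronal and growth cone genes tested, 16 were lower, 1 higher and 10 not past the test, with a median of -1.13. The neurofilament genes and peripherin showed the largest differences. Prph, the intermediate filament of peripheral neurons, read 13.02, 12.08 and 12.02 in freshly sorted cells and 6.02, 5.97 and 6.14 in gliospheres, 80.3-fold lower (adjusted p = 7.2e-06). Nefm was at least 44.6-fold lower and Nefh 17.6-fold. The list also holds genes for growing or migrating neurites. Stmn2, a microtubule regulator of growth cones, read 14.52, 14.84 and 14.68 against 13.25, 13.07 and 13.41, 2.70-fold lower, and Uchl1, the ubiquitin hydrolase PGP9.5, was 2.78-fold lower. Dcx (doublecortin), Nsg2, Dpysl4 and Rtn1 were 5.25-fold, 15.1-fold, 4.11-fold and 3.02-fold lower. The pan-neuronal Elavl4, Tubb3 and Gap43 did not pass the test, with differences of -0.19, -0.94 and 0.66. The count of higher genes was 0 without any 1 of the untreated or LPS arrays or freshly sorted replicate 2, and 2 without freshly sorted replicate 1.

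The peptides and enzymes of transmitter synthesis had the lowest median difference of the lists measured. Of 20 genes tested, 15 were lower, 1 higher and 4 not past the test, with a median of -5.45, or -4.67 with each undetected gene at its bound, and 10 of the 20 were not above background on any gliosphere array. Sst, somatostatin, read 8.22, 11.28 and 12.23 in freshly sorted cells and 1.59, 2.09 and 2.83 in gliospheres, at least 56.3-fold lower (adjusted p = 2.5e-04). Its level was lowest on freshly sorted replicate 1, as were those of Grp, Nmu and Slc17a6. Calcb (beta-CGRP), Adcyap1 (PACAP) and Dbh (dopamine beta-hydroxylase) were at least 52.7-fold, 21.8-fold and 43.6-fold lower. The cholinergic genes moved together. Chat, choline acetyltransferase, read 10.66, 10.68 and 11.08 against 5.06, 4.44 and 4.90, 64.3-fold lower (adjusted p = 7.4e-06), with 2 gliosphere arrays above background. Slc18a3, the vesicular acetylcholine transporter that lies within the same locus, was at least 85.0-fold lower, and Slc5a7, the choline transporter, 29.7-fold. Slc17a6, the vesicular glutamate transporter VGLUT2, was at least 50.0-fold lower, and Gad1, which makes GABA, at least 1.87-fold. Cartpt, a peptide of myenteric neurons, read 14.38, 13.80 and 13.19 against 10.99, 9.02 and 10.48, 12.4-fold lower but well above background in gliospheres.

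A single peptide of that list went the other way. Npy, neuropeptide Y, read 13.43, 14.11 and 14.42 in gliospheres and 9.03, 9.28 and 10.14 in freshly sorted cells, 22.7-fold higher (adjusted p = 5.1e-05), and the groups were far apart. Vip and Gal, encoding 2 abundant enteric peptides, had differences of -0.56 and -0.82 and did not pass the test, and Th and Ddc, of catecholamine synthesis, had differences of -2.30 and -0.45 and did not pass it either. Without freshly sorted replicate 1 Vip, Gal and Ddc were lower past the test (adjusted p = 0.00363, 0.02 and 0.0209), and Th was without freshly sorted replicate 2 or 3 (adjusted p = 0.0309 and 0.0439). Nos1, the neuronal nitric oxide synthase, was lower by 2.79, but most of its freshly sorted signal lay on replicate 1 (8.94, against 5.62 and 6.50), and without that array the difference was -1.83. The call of Nos1 was lost without untreated replicate 1 or 2 (adjusted p = 0.0894 and 0.0631).

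In the synaptic vesicle and secretory granule list, 14 of 19 genes tested were lower, none was higher and 5 did not pass, with a median of -1.43. Sncg, gamma-synuclein, read 12.58, 12.66 and 12.91 in freshly sorted cells and 7.64, 7.14 and 7.79 in gliospheres, 36.5-fold lower (adjusted p = 4.3e-06). The granule proteins Chgb, Scg2 and Pcsk1n were 10.1-fold, 8.70-fold and 6.42-fold lower, and Chga 3.42-fold. The genes of vesicles and their fusion that passed were lower as well. Stx1a (syntaxin 1A) read 12.20, 12.31 and 12.14 against 10.62, 10.42 and 10.88, 2.98-fold lower, Cplx1 (complexin 1) was 5.25-fold lower and Sv2a 4.42-fold. At an unadjusted limma p under 0.05 still 0 genes of the list were higher. Syp, synaptophysin, did not pass (difference -0.31), but without freshly sorted replicate 1 it was lower past the test (adjusted p = 0.0213), as were 17 of the 19 genes.

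**Figure D3:**
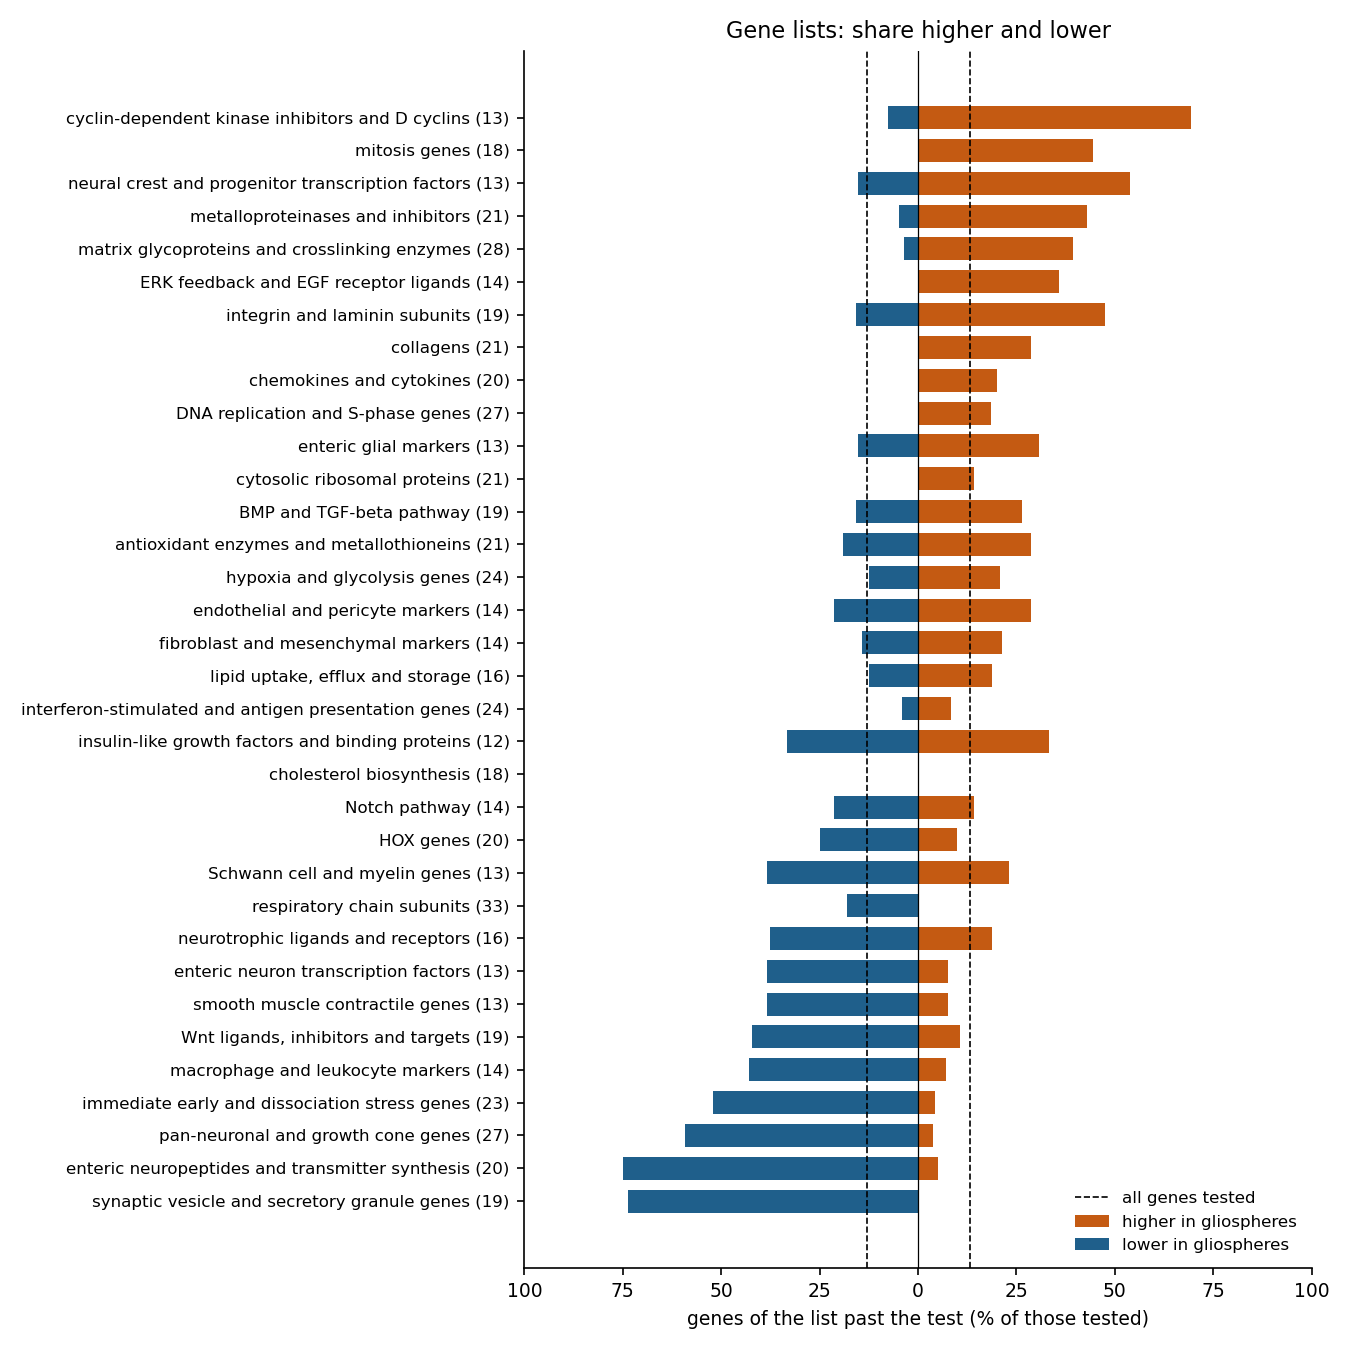
Share of the genes tested in each gene list that were higher (right, orange) or lower (left, blue) in untreated gliospheres, in percent of the genes tested, whose number is in brackets; lists with fewer than 10 genes tested are left out. Dashed lines mark the shares over all 10795 genes, 13.1% higher and 12.9% lower. The neuronal, peptide, synaptic and immediate early lists extend to the left, and the cyclin-dependent kinase inhibitor, mitosis, crest factor and metalloproteinase lists to the right.

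Immediate early and dissociation stress genes, which neurons and glia switch on within minutes of stimulation or of enzymatic digestion, were lower in gliospheres in 12 of 23 tested, higher in 1 and not past the test in 10, with a median of -1.33. Fosb read 9.60, 12.84 and 11.58 in freshly sorted cells and 5.15, 6.82 and 5.51 in gliospheres, 45.6-fold lower (adjusted p = 9.5e-04). Hspa1a, an inducible HSP70 gene whose near-identical copy Hspa1b may share its probe's signal, read 11.55, 13.15 and 12.81 against 6.66, 7.43 and 6.82, 46.4-fold lower. Klf2, Socs3, Junb, Fos and Egr1 were 29.0-fold, 14.96-fold, 10.2-fold, 4.96-fold and 3.42-fold lower. Fos and Egr1 stayed bright in both groups, at 11.65 to 12.77 and 12.81 to 13.46 in gliospheres. Freshly sorted replicate 1 held the lowest freshly sorted level of Fos, Fosb, Egr1, Klf2, Hspa1a and Socs3. Jun, Jund, Atf3, Ier2 and Myc did not pass, with differences between -0.79 and 0.20. Dissociation and sorting preceded RNA isolation directly in 1 group only, and their part in these levels was not tested.

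Zfp36, which encodes the mRNA-decay factor tristetraprolin, belongs to the same list. It read 13.62, 13.85 and 14.20 in freshly sorted cells and 10.43, 11.09 and 10.38 in gliospheres, 9.56-fold lower (adjusted p = 2.3e-04), and the groups did not overlap. Serum response factor binds the CArG box, a motif found in promoters of immediate early and of smooth muscle contractile genes, the classes that hold 17 of the lower genes here. Of these 17 genes, 14 had a RefSeq promoter entry (GRCm38.p6), and Actg2, Myh11 and Egr1 had none. A CArG box was found in the 250 bases before the start site of 1 of the 14, Zfp36, and in 1.47% of all 32851 promoter entries. Bases farther upstream and within the genes were not searched, so a gene without a match may still hold a box. The motif reads alike on both strands. The match describes these letters and does not show a bound site. The Zfp36 promoter is printed because it is the sole match among the lower genes, from chr7:28379229-28379478 on the minus strand, 5′ to 3′, ending at the base before the annotated start, with the CArG box in capitals, beginning 58 bases before the start.
Zfp36: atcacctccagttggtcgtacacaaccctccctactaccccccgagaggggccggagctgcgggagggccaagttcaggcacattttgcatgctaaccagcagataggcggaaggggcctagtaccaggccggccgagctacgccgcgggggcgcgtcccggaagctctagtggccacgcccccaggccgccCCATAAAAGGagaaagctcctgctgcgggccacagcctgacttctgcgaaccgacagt

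Smooth muscle genes were present in the freshly sorted cells at levels that differed between its arrays. Of 13 tested, 5 were lower in gliospheres, 1 was higher and 7 did not pass, with a median of -0.996, or -0.44 with undetected genes at their bounds. Myh11, smooth muscle myosin heavy chain, read 11.48, 9.53 and 8.42 on freshly sorted replicates 1 to 3 and 3.91, 2.37 and 3.13 in gliospheres, at least 33.1-fold lower (adjusted p = 2.0e-04). Mylk (myosin light chain kinase), Des (desmin) and Tpm2 (beta-tropomyosin) showed the same order over the freshly sorted arrays, highest on replicate 1, and Des was at least 9.93-fold lower while Mylk and Tpm2 were 52.5-fold and 10.6-fold lower. All 4 were lower past the test also without replicate 1, where Mylk and Tpm2 differed by -5.07 and -2.94. Cald1, caldesmon, which non-muscle cells also express, was 8.40-fold higher in gliospheres. Acta2, smooth muscle alpha-actin, was bright in both groups, at 12.65, 12.71 and 11.78 in gliospheres and 13.84, 13.50 and 12.78 in freshly sorted cells, and did not pass the test (difference -0.996 ± 0.35, adjusted p = 0.071). Without freshly sorted replicate 3 Acta2 passed it (adjusted p = 0.029). Tagln, Smtn and Tpm1 did not pass, with differences of -0.18, 0.38 and -0.44.

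Markers of further cell types of the muscle layer and serosa were measured in the same way. All 4 mesothelial genes past the test, of 6 tested, were lower in gliospheres. Upk3b, uroplakin 3B, read 11.52, 10.06 and 8.24 in freshly sorted cells and 5.44, 2.81 and 3.69 in gliospheres, 62.2-fold lower, with 1 gliosphere array above background. The log2 summed level of the mesothelial list was 12.14, 10.77 and 8.78 on freshly sorted replicates 1 to 3, and 5.80 to 7.73 in gliospheres. Leaving out untreated replicate 3 left 2 mesothelial genes past the test. Of 8 epithelial genes 2 were lower, led by Krt19 (keratin 19, shared with mesothelium), at least 15.3-fold lower and highest on freshly sorted replicate 1 (10.57, 8.43 and 7.08). Without that array 1 epithelial gene was lower. The remaining epithelial genes, among them Cdh1, Krt8, Lgals4 and Cldn7, did not pass, although Cdh1 did without freshly sorted replicate 2 (adjusted p = 0.0172) and Krt8 without untreated replicate 1 (adjusted p = 0.024).

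Of 14 macrophage and leukocyte genes, 6 were lower and 1 higher, and 3 were lower among probes above background on all arrays of a group. Adgre1, a macrophage surface antigen, read 10.02, 10.40 and 9.77 in freshly sorted cells and 8.14, 6.11 and 7.13 in gliospheres, 7.66-fold lower, and Coro1a, coronin 1A of leukocytes, was 5.19-fold lower. Cx3cr1, Mrc1, C1qa and Aif1 did not pass, with differences from -0.82 to 0.50, and Aif1 was lower past the test without freshly sorted replicate 2 (adjusted p = 0.0173). The count of higher genes in the list was 0 without untreated replicate 1 or 2 or freshly sorted replicate 1 or 2. Endothelial and pericyte genes split, with 4 of 14 higher and 3 lower, and with 4 higher and 5 lower without freshly sorted replicate 1. Vwf (von Willebrand factor) and Esam, 2 endothelial genes, were at least 9.01-fold and 4.88-fold lower and not above background on any gliosphere array, whereas Cspg4 (NG2), Ramp2 and Eng (endoglin), which are also found on other mesenchymal or glial cells, were 8.34-fold, 4.01-fold and 3.79-fold higher.

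Of 14 fibroblast and mesenchymal markers tested, 3 were higher (21.4%, against 13.1% over all genes) and 2 lower (14.3% against 12.9%). The remaining 9 did not pass. Vim, vimentin, an intermediate filament shared by glia and mesenchyme, read 13.28, 13.73 and 13.24 in gliospheres and 11.91, 11.62 and 11.97 in freshly sorted cells, 3.00-fold higher (adjusted p = 0.0012). Pdgfra, Pdgfrb, Twist1, Prrx1 and Dpt did not pass, with differences from -0.22 to 0.46. Dcn, decorin, was 3.75-fold lower, a call that was lost without untreated replicate 2 or 3 (adjusted p = 0.071 and 0.0631), which left 1 lower gene. How far the other cell types account for the differences in shared genes was not tested.

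**Figure D4:**
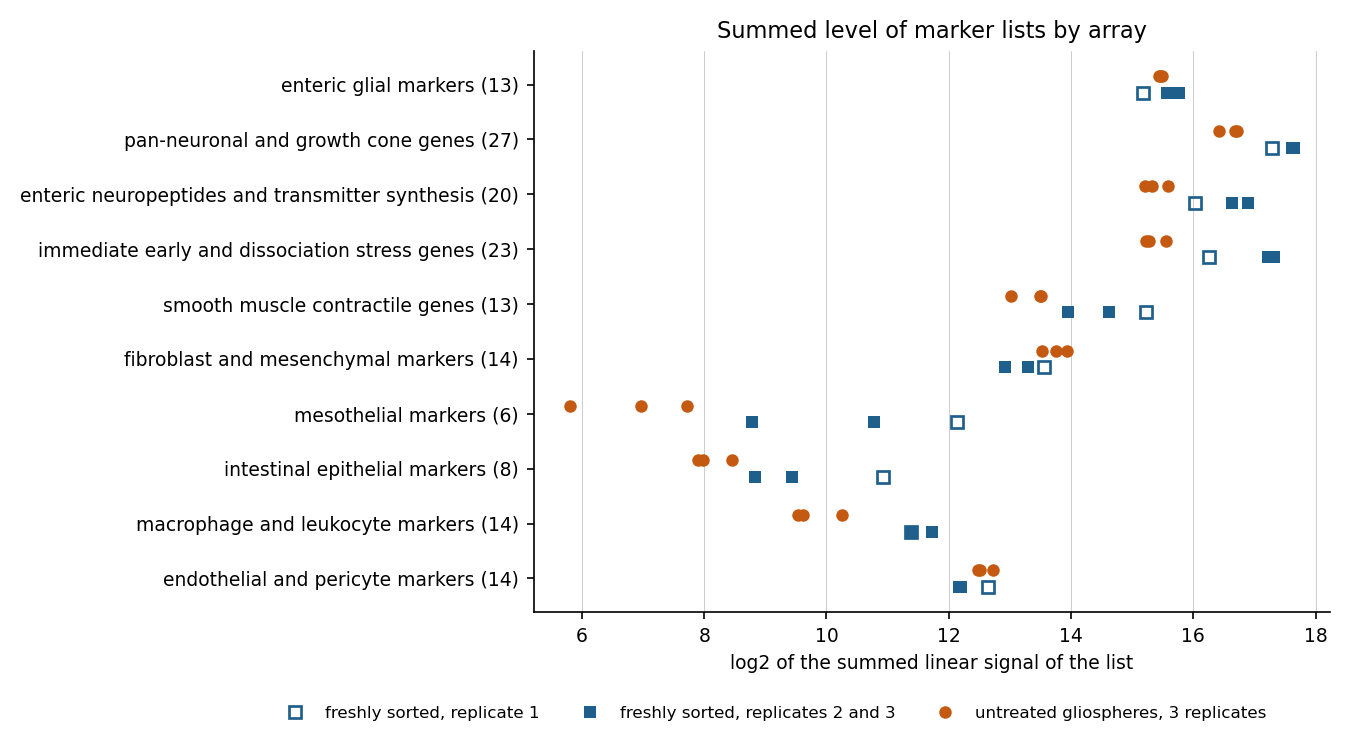
Log2 of the summed linear signal of 10 marker lists (horizontal axis, with the number of genes tested in brackets) on each of the 6 arrays, circles for untreated gliospheres and squares for freshly sorted cells, replicate 1 open. Smooth muscle, mesothelial and epithelial lists are highest on freshly sorted replicate 1 and the peptide and immediate early lists are lowest there among the freshly sorted arrays. Glial, endothelial and fibroblast lists lie close together or overlap between the groups.

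Genes of the extracellular matrix were raised in part. Of 21 genes of the collagen list tested 6 were higher and none lower. That list does not hold Col9a2, a collagen gene that was 94.6-fold lower, as described above. Of 28 matrix glycoproteins and crosslinking enzymes 11 were higher and 1 lower. The medians of the collagen and glycoprotein lists were 0.36 and 0.45. Bgn, biglycan, read 14.22, 14.56 and 14.60 in gliospheres and 11.16, 11.96 and 12.64 in freshly sorted cells, 5.80-fold higher (adjusted p = 0.0011). Tgfbi, a TGF-beta-induced adhesion protein, rose 9.92-fold, Fbln1 4.02-fold, Emilin1 3.44-fold and Igfbp7 3.40-fold. Among collagens, Col5a3, which Schwann cells also make, was 8.39-fold higher, Col5a2 3.61-fold and Col6a1 3.22-fold. Nid2, nidogen 2 of basement membranes, was the single lower gene of the glycoprotein list, 4.78-fold. The count of lower genes in that list was 4 without freshly sorted replicate 1 and 2 without LPS replicate 1 or freshly sorted replicate 2 or 3. At an unadjusted limma p under 0.05, 2 genes of the collagen list were lower. Its count of lower genes past the test was 3 without freshly sorted replicate 3, and 1 without LPS replicate 3 or freshly sorted replicate 1. The fibrillar collagens Col1a1, Col1a2 and Col3a1 did not pass (differences -1.16, -1.13 and 0.88), although Col1a2 was lower past the test without freshly sorted replicate 3 (adjusted p = 0.0136) and Col3a1 higher without freshly sorted replicate 2 (adjusted p = 0.0392).

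Integrins are receptors for that matrix. Of 19 integrin and laminin subunits tested 9 were higher (47.4%, against 13.1% over all genes) and 3 lower (15.8% against 12.9%). The median was 0.96. Itgav, the alpha-v subunit, read 8.88, 9.81 and 9.02 in gliospheres and 4.86, 4.33 and 4.59 in freshly sorted cells, 1 of them above background (difference 4.64 ± 0.30, adjusted p = 1.6e-05). Itga1, a collagen receptor subunit, was higher by 4.25, Itga5, which pairs with Itgb1 to bind fibronectin, 7.04-fold, Itga6 3.33-fold and Itgb1 3.27-fold. Itgb4, the partner of alpha-6 in the laminin receptor of Schwann cells and epithelia, moved the other way, from 9.83, 9.60 and 9.54 to 6.72, 7.60 and 6.21, 7.03-fold lower (adjusted p = 0.0021). The culture dishes were coated with fibronectin and laminin.

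Metalloproteinases and their inhibitors were higher in 9 of 21 genes tested and lower in 1, with a median of 1.14, or 0.56 with undetected genes at their bounds. Timp1, an inhibitor of metalloproteinases, read 9.58, 9.39 and 9.55 in gliospheres and 3.41, 4.08 and 3.62 in freshly sorted cells, none of them above background, at least 24.97-fold higher (adjusted p = 7.9e-06). Adamts4, an aggrecanase, was at least 14.8-fold higher, Mmp9 at least 9.39-fold and Mmp10 at least 5.42-fold. Adam12, a membrane-bound metalloproteinase, was 25.2-fold higher, and Mmp14 and Adam17, which cleave proteins at the cell surface, 3.45-fold and 3.63-fold. Mmp2, Timp2 and Timp3 did not pass, with differences from 0.10 to 0.43. The count of lower genes was 0 without any 1 of the untreated arrays.

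Regulators of the cell cycle, both inhibitors and the D cyclins that promote it, were listed apart from genes of mitosis and DNA replication. Among 13 cyclin-dependent kinase inhibitors, D cyclins and p53 targets tested, 9 were higher and 1 lower, with a median of 1.53. Cdkn2a, which encodes p16 and p19Arf, read 8.71, 8.63 and 8.35 in gliospheres and 3.15, 1.25 and 3.36 in freshly sorted cells, at least 12.98-fold higher (adjusted p = 6.8e-05). Its neighbour Cdkn2b was described above with the largest differences. Cdkn1a, p21, read up to 12.21 in gliospheres, with all 3 arrays above the 9.60, 8.91 and 7.40 of freshly sorted cells, 10.98-fold higher (adjusted p = 9.3e-04), and Trp53inp1 and Ccng1, also p53 targets, were 4.12-fold and 3.09-fold higher. Ccnd1, cyclin D1, reached 14.02, 14.07 and 14.15 in gliospheres, 7.70-fold above freshly sorted cells (adjusted p = 5.1e-05). The inhibitor Cdkn1c, p57, went down, from 13.92, 12.90 and 12.83 to 10.81, 10.75 and 11.03, 5.09-fold lower (adjusted p = 8.3e-04).

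Of 18 mitosis genes tested 8 were higher and none lower, with a median of 1.44, and of 27 DNA replication and S-phase genes 5 were higher (18.5%, against 13.1% over all genes) and none lower, with a median of 0.69. At an unadjusted limma p under 0.05 the lower genes numbered 0 in both lists. Cenpa, the centromeric histone, read 11.58, 11.90 and 11.13 in gliospheres and 9.54, 10.32 and 9.21 in freshly sorted cells, 3.59-fold higher (adjusted p = 0.0040), and Mad2l1, of the spindle checkpoint, was 3.10-fold higher. Rrm2 and Pcna, of DNA synthesis, were 3.63-fold and 3.61-fold higher. Cenpa, Mad2l1, Rrm2 and Pcna held their calls in every alternative fit, read on the most intense probe, and the counts of both lists did not. The mitosis count was 2 without untreated replicate 1, without untreated replicate 2 and without freshly sorted replicate 3, 5 without LPS replicate 3 and 13 without freshly sorted replicate 1. The S-phase count was 2 without untreated replicate 1, untreated replicate 2 or freshly sorted replicate 3, 3 without LPS replicate 3 and 8 without freshly sorted replicate 2. Top2a, Cdk1, Plk1 and Birc5 did not pass, with differences between 0.85 and 1.69. Top2a, Cdk1 and Plk1 were higher past it without freshly sorted replicate 1 (adjusted p = 0.0158, 0.00565 and 0.0474), and Plk1 also without freshly sorted replicate 2 (adjusted p = 0.0245).

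None of 18 cholesterol biosynthesis genes passed by limma, with a median of 0.07, and at an unadjusted p under 0.05 0 were higher and 2 lower. Without freshly sorted replicate 1, 2 of them were lower past the test, and without freshly sorted replicate 2, 1 was. Of 33 respiratory chain subunits, 6 were lower by 0.66 to 0.89, a count that was 0 without untreated replicate 2 or 3, 2 without untreated replicate 1 or any 1 LPS array, and 0 in a fit of only the 6 arrays compared. Hypoxia and glycolysis genes were higher in 5 (20.8%, against 13.1% over all genes) and lower in 3 (12.5% against 12.9%) of 24. Their median was -0.05, while the cells had been grown at 2% O2. Egln3, the oxygen sensor PHD3, read 9.35, 9.35 and 8.74 in gliospheres and 6.62, 6.84 and 6.32 in freshly sorted cells, 5.88-fold higher (adjusted p = 1.8e-04), and Hk2, hexokinase 2, was 3.73-fold higher, with 2 freshly sorted arrays above background. Slc2a1, Pdk1, Ldha, Ndrg1 and Higd1a did not pass, with differences from -0.56 to 1.01, and Higd1a was higher past the test without freshly sorted replicate 2 (adjusted p = 0.023). The count of higher genes was 2 without untreated replicate 2 or 3, and that of lower genes 1 without untreated replicate 1 or 3.

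Among 16 genes of lipid uptake, efflux and storage, 3 were higher (18.8%, against 13.1% over all genes) and 2 lower (12.5% against 12.9%). Lpl, described above, and Scd1, stearoyl-CoA desaturase 1 (12.35, 12.58 and 12.23 in gliospheres against 8.63, 9.71 and 10.13, 7.44-fold higher), rose. Fabp3, the heart-type fatty acid-binding protein, read 9.98, 10.05 and 9.94 in freshly sorted cells and 5.99, 5.80 and 5.95 in gliospheres, 16.8-fold lower (adjusted p = 7.9e-06), and Angptl4, an inhibitor of lipoprotein lipase, was 5.07-fold lower. The 4 genes did not overlap between groups. Of 21 antioxidant genes 6 were higher and 4 lower. Gpx3, the secreted glutathione peroxidase, fell from 13.33, 12.43 and 12.15 to 7.47, 7.06 and 7.21, 42.0-fold (adjusted p = 9.7e-06), and Mt3, the metallothionein of neurons and glia, was at least 18.03-fold lower. Sod3 and Hmox1, an extracellular superoxide dismutase and haem oxygenase 1, were at least 3.79-fold and 2.40-fold higher. The count of lower antioxidant genes was 2 without untreated replicate 1 or 2.

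Ligands and receptors of neurotrophic signalling diverged, with 3 of 16 higher (18.75%, against 13.1% over all genes) and 6 lower (37.5% against 12.9%). Gdnf read 9.40, 10.90 and 10.41 in gliospheres and 4.04, 4.59 and 4.87 in freshly sorted cells, and Artn (artemin, a second ligand of the GDNF family) 9.90, 11.18 and 10.43 against 5.62, 6.23 and 6.18, 22.5-fold higher (adjusted p = 5.1e-05). Kitl, stem cell factor, was 7.72-fold higher. The receptor components for Gdnf and Artn did not pass the test, with differences of 0.04 for Ret, -1.35 for Gfra1 and 0.19 for Gfra3. Edn1, endothelin 1, read 8.68, 9.36 and 9.01 in freshly sorted cells and 3.67, 2.77 and 3.70 in gliospheres, at least 19.1-fold lower (adjusted p = 7.9e-06). The neurotrophin receptors Ntrk3 and Ntrk2 were 8.53-fold and at least 1.40-fold lower, and Mdk, the growth factor midkine, 9.95-fold.

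Feedback genes of ERK signalling, which growth factors such as EGF and FGF induce, were listed together with receptors for these factors and the EGF receptor ligand Hbegf. Of the 14 genes of this list tested, 5 were higher and none lower, with a median of 0.73. The count of lower genes was 0 also at an unadjusted limma p under 0.05. Spry4, an inhibitor of receptor tyrosine kinase signalling, read 9.58, 9.12 and 9.39 in gliospheres and 7.49, 7.11 and 5.38 in freshly sorted cells, 6.53-fold higher (adjusted p = 0.0049). Etv4, a transcription factor downstream of FGF, read 8.62, 8.28 and 8.66 against 6.81, 5.40 and 3.40, with 2 freshly sorted arrays above background (difference 3.31 ± 0.69). The count was 3 without any 1 of the untreated arrays.

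BMP and TGF-beta genes were higher in 5 (26.3%, against 13.1% over all genes) and lower in 3 (15.8% against 12.9%) of 19. Nog, the BMP antagonist noggin, read 7.97, 7.12 and 6.46 in freshly sorted cells and 1.65, 1.42 and 2.58 in gliospheres, at least 5.37-fold lower (adjusted p = 6.0e-05), and Bmp4 was 3.68-fold lower. Bmper, another secreted BMP modulator, Ltbp1, which holds latent TGF-beta in the matrix, and the receptor gene Tgfbr2 were 10.8-fold, 14.2-fold and 3.55-fold higher. The count of higher genes was 3 without untreated replicate 1 or 3 or LPS replicate 2 or 3, and 8 without freshly sorted replicate 1, and that of lower genes was 5 without freshly sorted replicate 2. Wnt genes were lower in 8 of 19 (42.1%, against 12.9% over all genes) and higher in 2 (10.5% against 13.1%). Of the 8 lower genes, 5 (Sfrp1, Sfrp2, Sfrp5, Dkk3 and Wif1) encode secreted inhibitors. Dkk3 read 11.52, 12.75 and 13.10 in freshly sorted cells and 7.56, 8.77 and 8.12 in gliospheres, 19.8-fold lower (adjusted p = 0.0021), Wif1 was 10.7-fold lower, Sfrp1 7.84-fold and Sfrp2 at least 3.87-fold. Sfrp5 (difference -1.75, adjusted p = 0.0357) lost its call without any 1 of the untreated arrays, without LPS replicate 1 and without freshly sorted replicate 1, at an adjusted p of 0.0531 to 0.109. The ligand Wnt2 was at least 4.51-fold higher, and the intracellular inhibitor Nkd2 5.64-fold higher. In the Notch list 2 of 14 were higher (14.3%, against 13.1% over all genes) and 3 lower (21.4% against 12.9%). The ligand Jag1 was at least 2.46-fold higher and Jag2 lower (difference -1.96). The count of higher Notch genes was 1 without any 1 of the untreated or LPS arrays.

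Insulin-like growth factor genes were higher in 4 and lower in 4 of 12. Igf2 read 10.91, 11.48 and 10.85 in freshly sorted cells and 7.29, 8.10 and 7.83 in gliospheres, 10.1-fold lower (adjusted p = 8.3e-05), whereas Igf2r, the receptor that clears it, was 3.44-fold higher. Igfbp2 was 9.53-fold higher, and Igfbp3 was higher by 4.03, with 1 freshly sorted array above background. HOX genes keep the position of cells along the gut. Of 20 tested, 5 were lower (25%, against 12.9% over all genes) and 2 higher (10% against 13.1%), and 13 did not pass. Hoxb6 was 6.34-fold lower and Hoxd8 3.30-fold higher, and the count of lower genes was 3 without untreated replicate 2 or 3, any 1 LPS array or freshly sorted replicate 2.

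Of 20 chemokines and cytokines tested in the gliospheres without LPS, 4 were higher than in freshly sorted cells (20%, against 13.1% over all genes). None was lower, but 10 of the 20 were above background on no freshly sorted array, where a lower level can hardly be seen. On the gliosphere arrays 6 were not above background, and the probe filter also counted the LPS arrays. The median was 0.61, or 0.065 with undetected genes at their bounds. Ccl2, the monocyte chemoattractant MCP-1, read 9.39, 7.28 and 7.61 in gliospheres and 3.42, 3.32 and 2.96 in freshly sorted cells, where it was not above background, at least 9.37-fold higher (adjusted p = 1.8e-04), and was highest on untreated replicate 1. Ccl7, which attracts monocytes as well, read 8.81, 6.85 and 7.15 in the same order and was at least 6.67-fold higher. Cxcl12, which guides crest-derived cells, was 5.37-fold higher. At an unadjusted limma p under 0.05, 1 gene of the list was lower. Il6, Tnf, Cxcl1, Cxcl2 and Cxcl5 did not pass, with differences from 0.10 to 1.26. Interferon-stimulated and antigen presentation genes gave 2 higher (8.3%, against 13.1% over all genes) and 1 lower (4.2% against 12.9%) of 24. Without freshly sorted replicate 1 they gave 2 higher and 4 lower. With the other arrays left out in turn, the higher genes numbered 1 without any 1 of the untreated arrays or freshly sorted replicate 2 and 6 without freshly sorted replicate 3, and the lower genes 0 without any 1 of the untreated arrays or freshly sorted replicate 3 and 3 without freshly sorted replicate 2.

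The comparison without freshly sorted replicate 1 left the direction of the differences as it was. Of 2754 genes past the test that could be tested again, none changed sign, and 186 no longer passed. A further 53 could not be tested again. These genes had been chosen with that array included. The difference of 108 of them moved by more than 1.5 times. The median size of the differences was 1.65 with all arrays and 1.53 without that one. Without that array 18 peptide and transmitter genes, 16 pan-neuronal, 17 synaptic, 12 immediate early and 5 smooth muscle genes were lower, and 8 crest factors and 10 cyclin-dependent kinase inhibitors and D cyclins were higher. Other lists did not keep their counts, among them the enteric neuron factors, endothelial, interferon and matrix glycoprotein genes, whose counts without that array are given above. In the peptide list Cartpt, brightest on that array among the freshly sorted ones, differed by -3.33 without it.

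**Figure D5:**
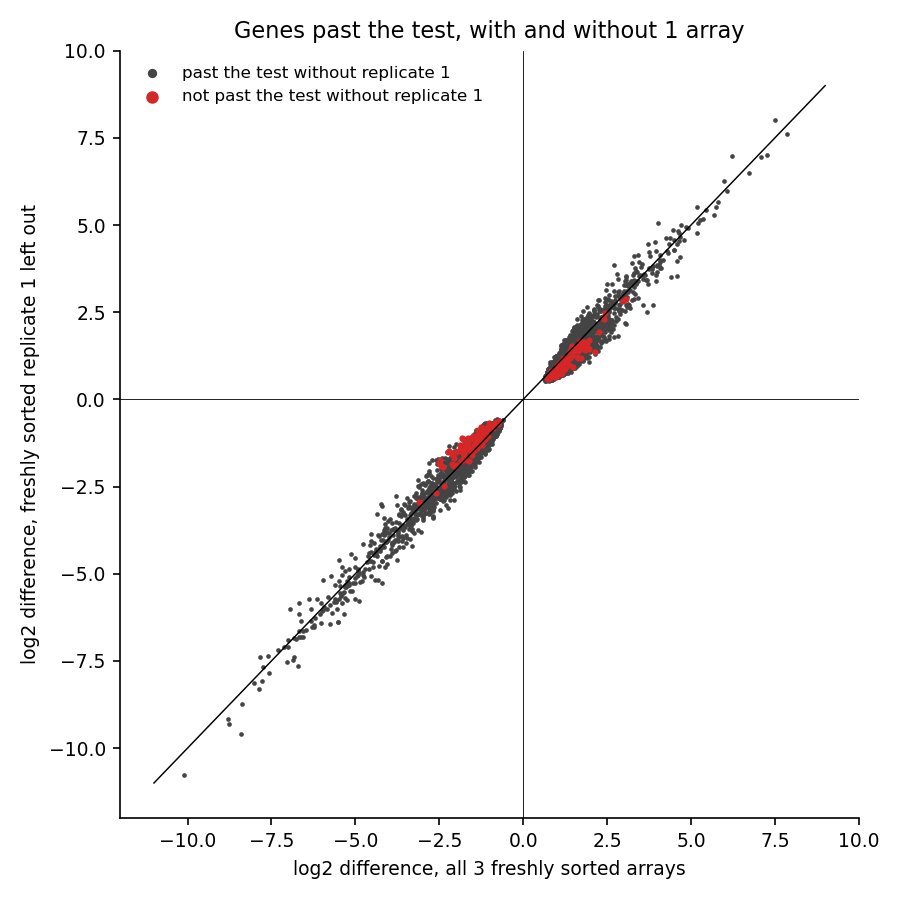
Log2 difference of each gene past the test (gliospheres minus freshly sorted cells) with all 3 freshly sorted arrays (horizontal axis) against the difference with freshly sorted replicate 1 left out (vertical axis), for 2754 genes, red where the gene no longer passed. The line marks equal differences. No point lies in the quadrants of opposite sign.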

How the data were processed

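RNA was hybridised to Illumina MouseRef-8 v2.0 arrays. The deposited signal intensity and detection p-value of each probe are GenomeStudio output without normalization. Most signals had lost their decimal point (95.7% to 98.2% of those of an array), which was restored by pairing them with the authors' normalized intensity of the same arrays, and 4 of 25697 probes that could not be settled were left out. The methods name normexp and VSN, whereas the columns of the authors' deposited normalized intensity hold nearly the same set of values, as after quantile normalization. That table served as an alternative and shrinks the differences. From the restored intensity, background was corrected by normexp, fitted through the detection p-values, and the 9 arrays were normalized by a VSN fit written for this purpose, giving values on a log2-like scale. A probe was kept if it had a gene and was above background (detection p of 0.05 or less) on at least 1 array, which left 14791 probes of 10795 genes, each gene represented by its probe of highest mean over the 9 arrays. Probes were named by gene identifier (23962), accession (9) or platform symbol (7), and 1719 stayed unnamed.

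Group means were fitted over 9 arrays in limma 3.58.1 (R 4.3.3), with the contrast untreated gliospheres minus freshly sorted cells and adjusted p over all probes tested (Benjamini-Hochberg, threshold 0.05). The labels name 3 animal preparations for the gliospheres and none for the freshly sorted cells, so p-values measure the spread between these arrays, which may be technical. The number of arrays limits the precision. A lower bound sets the undetected side, on each array, at the higher of its own value and the lowest value among probes above background. Alternatives covered the background correction, the normalization, the filter, the arrays fitted, array weights, the prior and a replicate block. They also covered the choice of probe, for the total counts only, and each array left out, which kept the normalization of all 9 arrays. The computing steps were tested on simulated data. The members and gene lists were chosen with earlier results of these data known. Genes named were the 10 largest differences in each direction among genes past the test whose arrays did not overlap (bounds where undetected), up to 6 of each list in each direction, and Gfap, S100b, Sox10, Ngfr, Vim and Acta2, beside an item that is not reported here. Further list members, among them those that did not pass, were named after their values were seen.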

Additional observations from a re-analysis of the deposited data

How the results depend on the processing

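The 2807 genes past the test were 2971 without background correction, 3099 after quantile normalization, 3201 in the authors' normalized values and 2361 without the detection filter. A fit of only the 6 arrays compared gave 1900 genes, 865 higher and 1035 lower, and 1891 of the 2807 genes passed in it. The LPS arrays it leaves out came from the same preparations as the untreated ones, with a median SD within the group of 0.232. In that fit 3 of the 8 higher mitosis genes and 2 of the 5 higher S-phase genes kept their calls. So did 11 of the 14 lower synaptic genes and 14 of the 15 lower peptide and transmitter genes. With each of the 9 arrays left out in turn, the count of genes past the test ran from 1828 to 3504 and that of higher genes from 853 to 1824, lowest without untreated replicate 2 and highest without freshly sorted replicate 1. The deviations of same-numbered arrays from their group means correlated at -0.178, -0.154 and 0.015, and those of other pairs at -0.077 to 0.192. With so few arrays these values cannot tell whether a replicate number stands for 1 litter. With the number as a replicate block 2499 genes passed, and with the block in a fit of only the 6 arrays 1374 passed, 540 higher and 834 lower, so that 39.3% of the calls were higher against 50.6%. The cause of these shifts was not tested. The slide as a block could not be run, because the labels and tables used here name no chip. Probes near background limit what can be said of dim genes, whose differences are given as bounds. The fit of 6 arrays without freshly sorted replicate 1, chosen after seeing the data, gave 2641 genes.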
